A study of Mus musculus with 18 samples.

Results

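The 9 genes described here encode aldehyde dehydrogenases other than the forms best known for oxidising retinal: Aldh1b1, Aldh1l1, Aldh2, Aldh3a2, Aldh4a1, Aldh6a1, Aldh7a1, Aldh8a1 and Aldh9a1. They were chosen by name, with earlier results of these data known. Each was read from the probe set annotated to it with the highest mean over all 18 arrays. They are 9 of 18193 genes that the array's annotation named, and all 9 were bright enough to be tested beside 12578 genes in all. Livers came from male mice aged 12 weeks, in 6 groups of 3 arrays, and each array carried a pool of liver RNA from 3 mice. Knockout mice (Alb-Cre+/-/POR-lox+/+) carried Cre under the albumin promoter and floxed alleles of NADPH-cytochrome P450 reductase. Control mice (Alb-Cre-/-/POR-lox+/+) carried the same floxed alleles without Cre. Each genotype was kept for 8 weeks from weaning on a synthetic diet whose fat was fish and fungal oil, canola oil or lard. The diets shared their base, with cholesterol and sodium cholate added. The sample labels give a fat content of 7% and the design text 6%. Mice were fasted for 4 h before the liver was taken.

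The albumin promoter is active in hepatocytes, so the deletion was directed at these cells. Whether the other cells of the liver kept the reductase was not measured. The deleted gene itself had no named probe set and is not analysed here, which leaves the genotypes as the labels give them. All 8 hepatocyte marker genes lay above the array median, and 0 of them passed the limma test between genotypes. The number at an unadjusted p under 0.05 was 0 of 8 in the effect averaged over diets and 1 on lard. Their summed linear level spanned 127838 to 138551 in knockout arrays and 130255 to 144435 in control arrays. Within diets, the knockout arrays lay below the control arrays on lard, at 135316 to 138551 against 142170 to 144435. The same held on fish/fungal oil, at 127838 to 134192 against 134565 to 138980. On canola oil the genotypes overlapped, at 133828 to 136831 in knockout and 130255 to 138929 in control arrays. In bulk liver RNA, fewer cells of a type and less RNA per cell cannot be told apart.

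Aldehyde dehydrogenases oxidise aldehydes to acids with NAD+ or NADP+ as the electron acceptor. They do not draw on the reductase, which passes electrons from NADPH to the microsomal cytochromes P450. In the liver they clear acetaldehyde and the aldehydes left by lipid peroxidation, and they carry out single steps in the breakdown of amino acids, lipids and folate. Aldh2 and Aldh1b1 encode mitochondrial enzymes that oxidise acetaldehyde. Aldh3a2 encodes the fatty aldehyde dehydrogenase of the endoplasmic reticulum, whose loss in humans causes Sjögren-Larsson syndrome. Aldh4a1 acts on glutamate semialdehyde in proline breakdown, Aldh6a1 on methylmalonate semialdehyde in valine breakdown and Aldh7a1 on aminoadipate semialdehyde in lysine breakdown. Aldh8a1 acts on aminomuconate semialdehyde in the kynurenine pathway of tryptophan. Aldh9a1 oxidises trimethylaminobutyraldehyde in carnitine synthesis. Aldh1l1 encodes the cytosolic 10-formyltetrahydrofolate dehydrogenase of one-carbon metabolism.

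Promoter sequences from RefSeq (build GRCm38.p6), 250 bases before and 50 bases after the annotated start site, matched 7 of the 9 genes. Aldh2 and Aldh7a1 had no entry. The promoters of Aldh3a2 and Aldh1b1 are shown because these genes had the smallest unadjusted p-values of the 9 in the knockout comparison and in the comparison of fish/fungal oil with lard. Aldh3a2 lies on the minus strand at chr11:61267137-61267436 and Aldh1b1 on the plus strand at chr4:45798772-45799071. Each is printed from 5′ to 3′ along its gene, with capitals marking matches on either strand to 3 motifs. The GC box was searched as GGGCGG. The E-box was searched as CACGTG. The CCAAT box was searched by the letters of its name.
Aldh3a2: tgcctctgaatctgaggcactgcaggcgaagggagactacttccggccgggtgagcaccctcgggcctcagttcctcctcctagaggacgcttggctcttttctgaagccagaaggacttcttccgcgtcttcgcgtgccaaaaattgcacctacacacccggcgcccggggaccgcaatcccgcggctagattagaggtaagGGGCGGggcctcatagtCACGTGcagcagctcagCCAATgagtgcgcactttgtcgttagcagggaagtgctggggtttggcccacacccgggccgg
Aldh1b1: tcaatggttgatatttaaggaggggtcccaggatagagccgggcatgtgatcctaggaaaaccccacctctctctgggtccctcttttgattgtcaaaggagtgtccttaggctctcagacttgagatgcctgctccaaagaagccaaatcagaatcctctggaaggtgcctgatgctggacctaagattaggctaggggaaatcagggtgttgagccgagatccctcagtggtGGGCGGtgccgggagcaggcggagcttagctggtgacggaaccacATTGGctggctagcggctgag
The Aldh3a2 window held a GC box at -47, an E-box at -30 and a CCAAT box at -13 from the start site. The Aldh1b1 window held a GC box at -16 and, on the reverse strand, a CCAAT box at 30. Both windows were also searched for the nuclear receptor half-site AGGTCA. A further search was for the antioxidant response core TGACNNNGC. The letters of neither were in them, and no motif searched contains another. Of 32851 promoters of this length in the table, 35.7% held the GC box, 37.4% the CCAAT box and 7.15% the E-box. The half-site was in 16.3% and the antioxidant response core in 12.4%. A match describes the letters and is not a binding site.

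The first question was whether deleting the reductase in hepatocytes changed the transcripts of these enzymes. None of the 9 passed the threshold (limma, adjusted p under 0.05 over 12578 genes) in the knockout effect averaged over the 3 diets, where 4.57% of tested genes passed. Values below are log2 expression values as deposited, knockout minus control, and each gene is compared with itself and not with another gene's level. At an unadjusted p under 0.05 stood 1 of the 9, Aldh3a2, against 18% of tested genes. The changes were positive in 5 members and negative in 4, with a median of 0.03 log2 units, beside a median of -0.00 over all tested genes. P-values here measure the spread between pools, which may be partly technical.

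Aldh3a2, which removes long-chain fatty aldehydes, had the widest difference of the 9 between genotypes. On fish/fungal oil its log2 values were 10.87, 11.44 and 11.17 in knockout pools, against 10.77, 10.79 and 10.68 in control pools. On canola oil they were 11.59, 11.73 and 11.08 in knockout pools, against 11.38, 11.06 and 10.64 in control pools. On lard they were 10.76, 10.66 and 11.68 in knockout pools, against 10.98, 10.21 and 10.37 in control pools. The knockout arrays all lay above the control arrays on fish/fungal oil, whereas the genotypes overlapped on canola oil and on lard, where 1 knockout pool stood well above the other two. Over all tested genes, 5.72% had every knockout array above every control array on fish/fungal oil. The averaged difference for Aldh3a2 was 0.46 ± 0.15 log2 units (SE), or 1.37-fold with a 95% interval of 1.10 to 1.70. Its unadjusted p of 0.00682 became 0.0929 after Benjamini-Hochberg adjustment, which misses the threshold. The difference was 0.41 ± 0.26 on fish/fungal oil, 0.44 ± 0.26 on canola oil and 0.52 ± 0.26 on lard, all positive, with adjusted p-values of 0.769, 0.913 and 0.508. Each rested in part on 1 array: it was 0.27 on fish/fungal oil without knockout fish/fungal replicate 2, 0.25 on canola oil without control canola replicate 3 and 0.20 on lard without knockout lard replicate 3. The call sits near the threshold: down-weighting less reliable arrays gave 0.53 with an adjusted p of 0.0285, and leaving out control lard replicate 1 gave 0.53 with an adjusted p of 0.0496. Over all 18 arrays left out in turn the difference ran from 0.35 to 0.53 and the adjusted p reached 0.189.

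**Figure D1:**
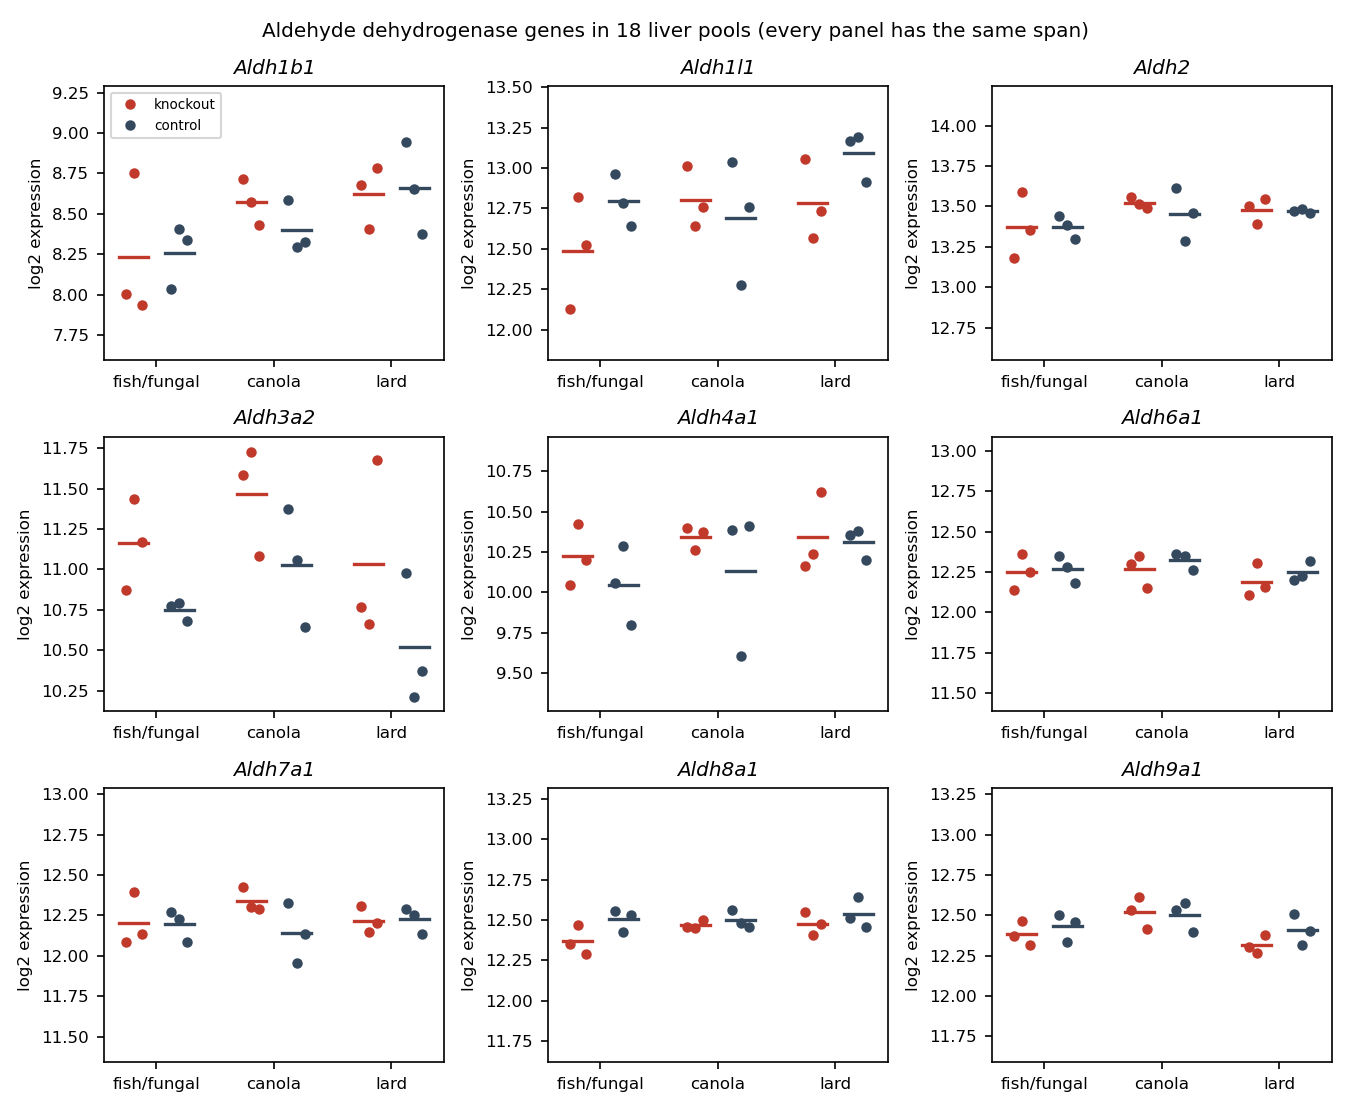
Log2 expression (vertical axes, the same span for every gene at its own position) of the 9 aldehyde dehydrogenases in each pool (points) with the mean of 3 pools (bars), by diet, with knockout pools left of control pools. Aldh3a2 knockout means lie above control means on every diet while single pools overlap on canola oil and lard, and Aldh6a1, Aldh8a1 and Aldh9a1 move within narrow ranges.

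For the 2 mitochondrial acetaldehyde enzymes no difference was called. Aldh2 was read from its brightest probe set, with which some dimmer ones of the gene disagree as given below. So read, Aldh2 averaged 13.46 in knockout livers and 13.43 in control livers. The difference was 0.03 ± 0.05 with an interval of -0.08 to 0.14, or 0.944-fold to 1.10-fold. Aldh1b1 averaged 8.48 in knockout livers and 8.44 in control livers, a difference of 0.04 ± 0.11 with an interval of -0.20 to 0.27, or 0.873-fold to 1.20-fold. The interval for Aldh1b1 was the wider of the pair. The adjusted p-values were 0.846 for Aldh2 and 0.906 for Aldh1b1.

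Aldh1l1, the formyltetrahydrofolate dehydrogenase, averaged 12.69 in knockout livers and 12.86 in control livers. The difference was -0.17 ± 0.11, or 0.891-fold, with an interval of -0.39 to 0.06 and an adjusted p of 0.460. It was -0.11 without control canola replicate 1 and also -0.11 without knockout fish/fungal replicate 1. On fish/fungal oil its values were 12.13, 12.82 and 12.52 in knockout pools, against 12.96, 12.78 and 12.64 in control pools. On canola oil they were 13.02, 12.64 and 12.76 in knockout pools, against 13.04, 12.28 and 12.76 in control pools. On lard they were 13.06, 12.57 and 12.73 in knockout pools, against 13.17, 13.19 and 12.92 in control pools. The groups overlapped on every diet. The difference was -0.31 ± 0.19 on fish/fungal oil, 0.12 ± 0.19 on canola oil and -0.31 ± 0.19 on lard. Its knockout effect on canola oil exceeded that on lard by 0.42 ± 0.26 with an unadjusted p of 0.125, so that a dependence on diet was not shown.

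Among the enzymes of amino acid breakdown, Aldh4a1 differed by 0.14 ± 0.11 (interval -0.08 to 0.36, adjusted p 0.546) between knockout and control livers. Without control canola replicate 2, which measured 9.60 beside 10.39 and 10.41 in its group, the difference was 0.0506, and without knockout lard replicate 3 it was 0.0918. Aldh6a1 differed by -0.04 ± 0.05 (interval -0.14 to 0.05, adjusted p 0.674) and Aldh7a1 by 0.07 ± 0.06 (interval -0.05 to 0.19, adjusted p 0.598). Aldh8a1 gave -0.07 ± 0.04 (interval -0.16 to 0.01), with an unadjusted p of 0.0763 and an adjusted p of 0.345. Its group means were lower in knockout than in control livers on each diet, at 12.37 against 12.50 on fish/fungal oil, 12.47 against 12.50 on canola oil and 12.48 against 12.54 on lard, and the arrays overlapped. Aldh9a1, of carnitine synthesis, differed by -0.04 ± 0.04 (interval -0.13 to 0.05, adjusted p 0.698). For the 3 least variable of these genes, Aldh6a1, Aldh8a1 and Aldh9a1, every interval of the averaged knockout effect stayed between 0.896-fold and 1.04-fold. That range holds for the brightest probe set of each gene, and the second of Aldh9a1 differed in sign, as given below.

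**Figure D2:**
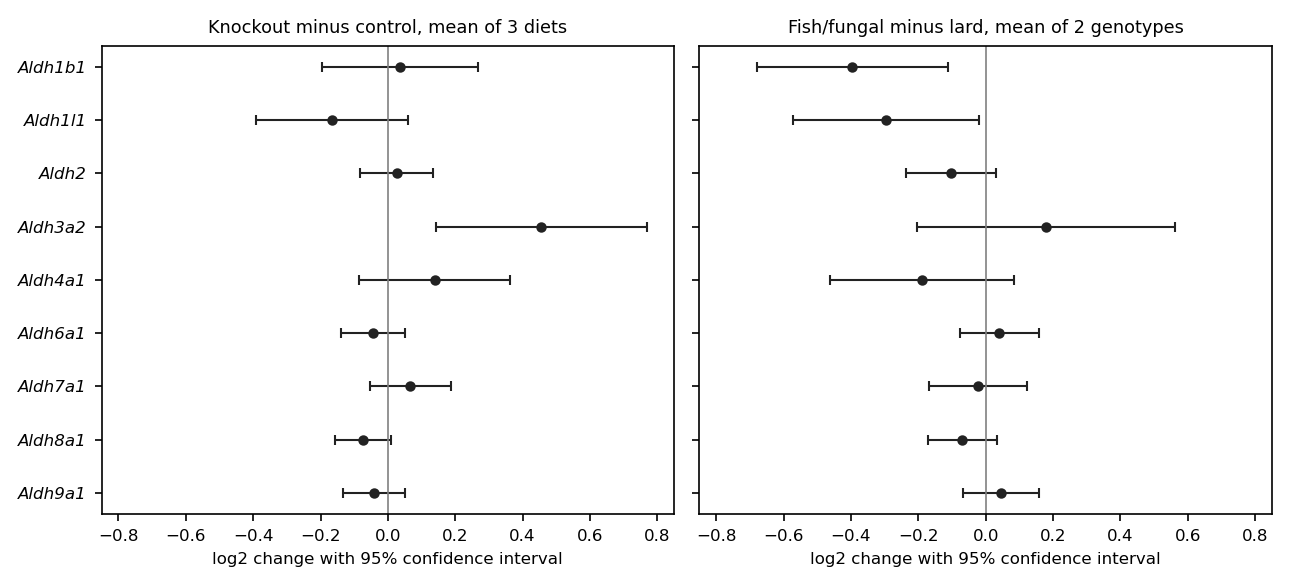
Log2 differences (horizontal axes) with 95% intervals (bars) for the 9 genes in the averaged knockout effect (one panel) and the averaged comparison of fish/fungal oil with lard (the other), from the fit over all 18 arrays. The interval of Aldh3a2 clears 0 in the knockout effect (0.14 to 0.77) and that of Aldh1b1 in fish/fungal oil against lard (-0.68 to -0.11), and neither passes after adjustment over all tested genes.

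The knockout effect was also taken within each diet, and 0 of the 9 passed in any of them or at an unadjusted p under 0.05. The shares of tested genes that passed after adjustment were 0.294% on fish/fungal oil, 0.0636% on canola oil and 0.986% on lard. At an unadjusted p under 0.05 they were 7.62%, 6.14% and 10.5% in the same order. The limma test of whether the knockout effect depended on diet called 0 members and 0% of tested genes, with 0 members and 1.92% of tested genes at an unadjusted p under 0.05. An F test over all 6 groups called 3.4% of tested genes and 0 members. Aldh3a2 had the smallest p of the 9 in it, 0.0297 before and 0.276 after adjustment.

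The next question was whether the fat source changed these transcripts. Averaged over both genotypes, fish/fungal oil against lard called 0 of the 9 members and 2.32% of tested genes. At an unadjusted p under 0.05 stood 2 of the 9, Aldh1b1 and Aldh1l1, against 13.1% of tested genes. The differences were negative in 6 members and positive in 3, with a median of -0.07 log2 units, beside a median of -0.00 over all tested genes.

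Aldh1b1 had the lowest p of the 9 in this comparison. On fish/fungal oil its log2 values were 8.00, 8.75 and 7.94 in knockout pools and 8.04, 8.40 and 8.34 in control pools. On lard they were 8.68, 8.41 and 8.79 in knockout pools and 8.95, 8.65 and 8.38 in control pools. Knockout fish/fungal replicate 2 stood above the other fish/fungal pools and inside the range of the lard pools. The diets overlapped in both genotypes, in control livers by a narrow margin. The averaged difference of fish/fungal oil from lard was -0.40 ± 0.13 (interval -0.68 to -0.11), or 0.760-fold, with an unadjusted p of 0.00906 and an adjusted p of 0.174. It was -0.39 ± 0.19 in knockout livers and -0.40 ± 0.19 in control livers. Without knockout fish/fungal replicate 2 the averaged difference was -0.53 with an adjusted p of 0.0146, which passes. It shrank to -0.32 without knockout fish/fungal replicate 3, and the adjusted p rose to 0.355 without knockout fish/fungal replicate 1. On canola oil the values lay at 8.72, 8.57 and 8.43 in knockout pools and 8.59, 8.29 and 8.32 in control pools. Averaged over genotypes, the mean was 8.24 on fish/fungal oil, 8.49 on canola oil and 8.64 on lard.

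Aldh1l1 differed by -0.29 ± 0.13 between fish/fungal oil and lard (interval -0.57 to -0.02), with an unadjusted p of 0.0376 and an adjusted p of 0.339. The difference was -0.29 ± 0.19 in knockout livers and -0.30 ± 0.19 in control livers. A second, dimmer probe set for the same gene gave -0.52 ± 0.15 with an adjusted p of 0.121 and followed the first over the arrays with r = 0.93. Of the other members, Aldh4a1 gave -0.19 ± 0.13, Aldh2 -0.10 ± 0.06, Aldh8a1 -0.07 ± 0.05 and Aldh7a1 -0.02 ± 0.07. Aldh3a2 gave 0.18 ± 0.18, Aldh9a1 0.05 ± 0.05 and Aldh6a1 0.04 ± 0.06. All 7 had adjusted p-values above that of Aldh1l1. In control livers alone the Aldh2 arrays did not overlap, at 13.44, 13.39 and 13.30 on fish/fungal oil against 13.47, 13.49 and 13.46 on lard. That difference was only -0.10 ± 0.09, and 7.39% of tested genes had every fish/fungal control array below every lard control array.

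Fish/fungal oil against canola oil, averaged over genotypes, gave a negative value in all 9 members, with a median of -0.10 log2 units beside 0.01 over all tested genes. None passed: 0 members and 0.986% of tested genes after adjustment in limma, and 0 members and 9.68% of tested genes at an unadjusted p under 0.05. The members ran from -0.04 for Aldh6a1 to -0.29 for Aldh3a2 (SE 0.18), and Aldh9a1 had the smallest p, with -0.10 ± 0.05 and an adjusted p of 0.588. Within knockout livers all 9 were again negative, with a median of -0.13, and within control livers 6 of 9 were, with a median of -0.07. These counts draw on the same fish/fungal arrays in every gene, and several of the genes vary together from pool to pool as given below. The signs are those of the brightest probe set of each gene. The share of negative values over all tested genes was not counted. Markers of other cells moved in the same comparison. Of 10 Kupffer cell and macrophage markers 1 was called higher on fish/fungal oil than on canola oil, 8 stood at an unadjusted p under 0.05, and the median was 0.32. Of 3 neutrophil markers tested 0 were called and 2 stood at an unadjusted p under 0.05, with a median of 0.83. The summed linear level of the macrophage markers was 10250 to 17173 in knockout and 11516 to 12533 in control arrays on fish/fungal oil, against 9118 to 12314 in knockout and 7404 to 10542 in control arrays on canola oil. That of the 5 named neutrophil markers was 301 to 490 in knockout and 383 to 621 in control arrays on fish/fungal oil, against 249.1 to 313.9 in knockout and 209 to 280.0 in control arrays on canola oil. Their part in the values of the 9 genes was not tested.

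Canola oil against lard had its smallest p-values in Aldh9a1 and Aldh3a2. Aldh3a2 averaged 11.25 on canola oil and 10.78 on lard, a difference of 0.47 ± 0.18 with an unadjusted p of 0.0192 and an adjusted p of 0.598. Aldh9a1 averaged 12.51 on canola oil and 12.36 on lard, a difference of 0.15 ± 0.05 with an unadjusted p of 0.0133 and an adjusted p of 0.531. In knockout livers its values were 12.53, 12.61 and 12.41 on canola oil, against 12.30, 12.27 and 12.38 on lard. These arrays did not overlap, whereas 4.39% of tested genes had every canola knockout array above every lard knockout array. In control livers Aldh9a1 measured 12.53, 12.58 and 12.39 on canola oil, against 12.51, 12.31 and 12.40 on lard, and the diets overlapped. Aldh1l1 differed by -0.40 ± 0.19 between canola oil and lard in control livers, with an unadjusted p of 0.0444 and an adjusted p of 0.996. In this averaged comparison limma called 0 members and 0% of tested genes, with 2 members and 6.77% of tested genes at an unadjusted p under 0.05. The macrophage markers had 0 calls here, 6 of 10 at an unadjusted p under 0.05 and a median of -0.27, and the 3 neutrophil markers 0 calls, 2 at an unadjusted p under 0.05 and a median of -0.88.

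The remaining diet comparisons, within each genotype, called 0 members as well. Of tested genes, fish/fungal oil against lard called 0.461% in knockout livers and 0.716% in control livers, and fish/fungal oil against canola oil called 0.159% in knockout and 0.262% in control livers. Canola oil against lard called 0% in both genotypes. At an unadjusted p under 0.05 these 6 comparisons held 0 members, except canola oil against lard, with Aldh9a1 in knockout livers and Aldh1l1 in control livers. The shares of tested genes there were 4.83% in knockout and 4.6% in control livers. For fish/fungal oil against lard they were 8.55% in knockout and 7.97% in control livers, and for fish/fungal against canola oil 5.92% in knockout and 6.57% in control livers.

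The 6 group means were ordered, and the gaps between neighbours were set beside the pooled SD within groups. Aldh3a2 ran from a mean of 11.47 ± 0.34 in knockout canola livers through 11.16 ± 0.28 in knockout fish/fungal, 11.04 ± 0.56 in knockout lard, 11.03 ± 0.37 in control canola and 10.75 ± 0.06 in control fish/fungal to 10.52 ± 0.40 in control lard livers (SD, n = 3 each). The 3 knockout means thus stood above the 3 control means, and the span of the means was 0.95 log2 units. Its largest gap between neighbours in that order was 0.31, under its pooled SD within groups of 0.37. In 7 of the 9 genes the largest gap between neighbouring group means was under the pooled SD. The share of all tested genes for which this holds was not counted, so nothing particular to the 9 is read from it. The exceptions were Aldh1l1, whose control lard mean of 13.09 ± 0.15 stood 0.29 above the next, and Aldh8a1, whose knockout fish/fungal mean of 12.37 ± 0.09 stood 0.10 below the next. Their pooled SDs were 0.26 and 0.07.

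In Aldh1b1 both lard means (8.62 in knockout and 8.66 in control livers) were the highest and both fish/fungal means (8.23 in knockout and 8.26 in control livers) the lowest. Aldh9a1 was highest on canola oil in both genotypes, at 12.52 in knockout and 12.50 in control livers, and lowest in knockout livers on lard, at 12.32. Aldh2 had a span of 0.15, from 13.52 in knockout canola to 13.37 in control fish/fungal livers. Aldh4a1 had a span of 0.30 and Aldh7a1 of 0.20, with the knockout canola mean highest in both, at 10.34 and 12.34. Aldh6a1 had the narrowest span of the 9, 0.13, from 12.32 in control canola to 12.19 in knockout lard livers.

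The genes differed in how steady they were between pools of the same group. The pooled SD within groups was 0.37 for Aldh3a2, higher than in 97.6% of tested genes. It was 0.26 for Aldh1l1 and for Aldh1b1 and 0.25 for Aldh4a1, also above the median of 0.14 over tested genes. It was 0.12 for Aldh7a1 and Aldh2, 0.09 for Aldh6a1 and Aldh9a1 and 0.07 for Aldh8a1, the last at the 2.76th percentile. A given difference is therefore measured more finely in Aldh8a1 than in Aldh3a2, which the interval widths above show.

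Some of the members varied together from pool to pool. In knockout fish/fungal replicate 1 all 9 lay below their group means, with a median deviation of -0.18 log2 units, against -0.02 over all tested genes. In knockout fish/fungal replicate 2 all 9 lay above, with a median of 0.20 against 0.04 over all tested genes, and in control canola replicate 1 all 9 lay above, with 0.18 against 0.02. These arrays are named because all 9 lay on the same side in them. Deviations within a group sum to 0, so the knockout fish/fungal pools are not separate instances.  Of the 36 pairs of members, 13 had a Pearson r over 0.5 across the 18 arrays, or 36.1%, beside 5.68% of all pairs of tested genes. The other 23 had an r of 0.5 or less, 6 of them below 0, and the median r was 0.32. For deviations from group means, which leave out the differences between groups, 13 of the 36 pairs had an r over 0.5. Of all pairs of tested genes 9.27% did. Aldh2 and Aldh7a1 reached r = 0.82, or 0.89 for deviations from group means, and Aldh1l1 and Aldh7a1 reached 0.71, or 0.94 for deviations. Aldh3a2 went with Aldh9a1 at r = 0.54, but had an r of -0.25 with Aldh8a1 and -0.13 with Aldh1l1. Aldh4a1 and Aldh9a1 had an r of -0.22. These values share arrays and normalization across genes and are descriptions.

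**Figure D3:**
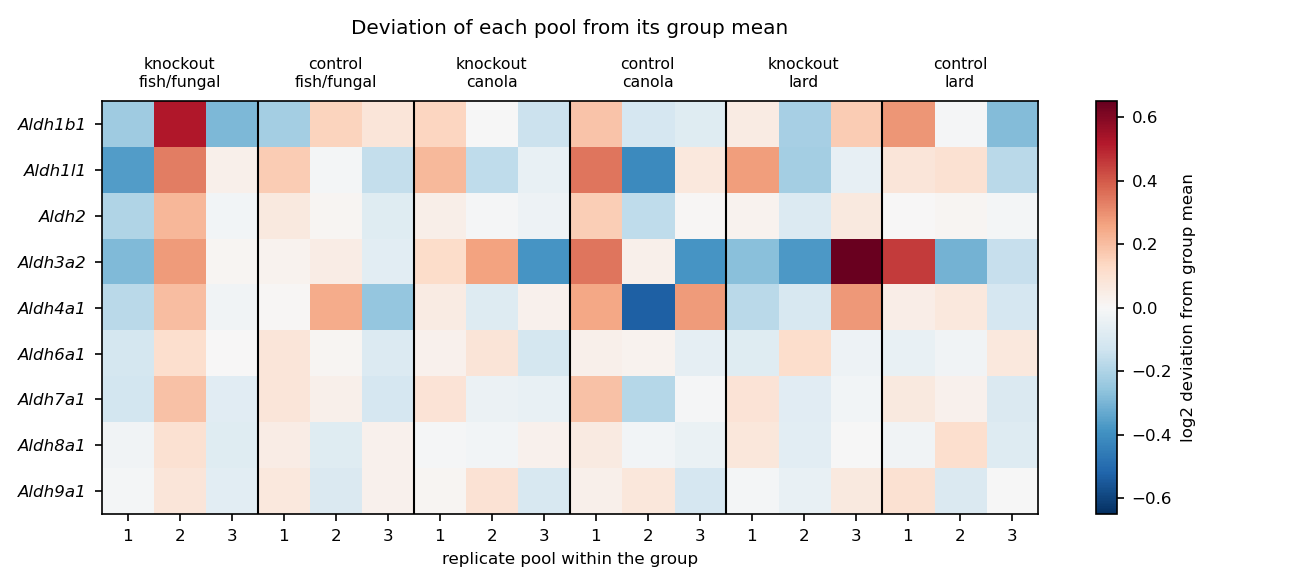
Deviation of each gene's log2 value from its group mean (colour) for the 9 genes by array, with knockout arrays left of control arrays within each diet. Knockout fish/fungal replicate 1 is below the group mean in all 9 genes, and knockout fish/fungal replicate 2 and control canola replicate 1 are above it in all 9.

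The genes outside the list whose log2 values were most like those of each member over the 18 arrays were as follows. For Aldh3a2 they were Decr1, a mitochondrial dienoyl-CoA reductase of fatty acid oxidation (Pearson r = 0.90, Spearman rho = 0.91), and Vwa8 (r = 0.89, rho = 0.86). For Aldh9a1 they were Cpt2, the inner-membrane carnitine palmitoyltransferase (r = 0.81, rho = 0.84), and Gm11266 (r = 0.80, rho = 0.76). For Aldh2 they were Epas1, a hypoxia-inducible transcription factor (r = 0.92, rho = 0.87), and Sec31a, a coat protein of vesicles leaving the endoplasmic reticulum (r = 0.89, rho = 0.90). Sec31a was also nearest to Aldh7a1 (r = 0.87, rho = 0.92), followed by Acad10 (r = 0.86, rho = 0.84). Aldh1b1 was most like Gckr, the glucokinase regulator (r = 0.88, rho = 0.88), and Supt3 (r = 0.85, rho = 0.76). Aldh1l1 was most like Mon2 (r = 0.92, rho = 0.94) and Kif13b (r = 0.92, rho = 0.81). For Aldh4a1 they were Spr, sepiapterin reductase (r = 0.91, rho = 0.93), and Atp5b, a subunit of ATP synthase (r = 0.90, rho = 0.73). For Aldh8a1 they were Usp7, a deubiquitinase (r = 0.89, rho = 0.83), and Zdhhc5 (r = 0.88, rho = 0.83). Aldh6a1 had the loosest likeness, to Osbp2 (r = 0.76, rho = 0.75) and Pias4 (r = 0.73, rho = 0.72). Neither Decr1 nor Cpt2 passed the knockout test, at 0.13 (adjusted p 0.363) and -0.07 (adjusted p 0.695).

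Aldh1l1, Aldh2, Aldh7a1, Aldh8a1 and Aldh9a1 had more than 1 probe set, and the 9 genes had 18 in all. In limma 0 of the 18 passed in the averaged knockout effect or in fish/fungal oil against lard. For Aldh2 the probe sets agreed only in part. The brightest averaged 13.45 over the arrays and the others 7.16 to 8.43. The dimmest followed the brightest with r = 0.80 and gave a knockout difference of 0.004 ± 0.08. Its brightest gave a knockout difference of 0.03, another gave 0.32 ± 0.15 with an adjusted p of 0.302, and a pair with r of -0.08 and -0.02 to the brightest gave -0.09 ± 0.24 and -0.05 ± 0.21. For Aldh7a1 both dimmer probe sets gave -0.13 ± 0.06 and -0.12 ± 0.06, opposite in sign to the brightest at 0.07, and 1 of them exceeded the array median on only 7 arrays. For Aldh9a1 the second probe set gave 0.06 ± 0.06 against -0.04 for the brightest, and for Aldh8a1 both gave negative values, -0.06 ± 0.06 and -0.07. Over the arrays the second probe set followed the brightest only loosely, with r = 0.33 for Aldh8a1 and 0.35 for Aldh9a1. For the dimmer probe sets of Aldh7a1 r was -0.07 and -0.20. No direction is settled for Aldh2, Aldh7a1 or Aldh9a1.

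The enzymes around the 9 genes were counted from lists drawn up with earlier results of these data known. In the averaged knockout effect 3.82% of tested genes passed as higher and 0.755% as lower. Of 7 tested aldehyde dehydrogenases outside the 9, 1 was higher in knockout livers, Aldh1a1, a cytosolic retinal dehydrogenase, by 0.28 ± 0.06 (adjusted p 0.0119). Of those 7, 3 stood at an unadjusted p under 0.05, beside 18% of tested genes, and the median was -0.04. On lard 3 of the 7 did so as well, beside 10.5% of tested genes, and 0 passed. Of 16 other enzymes that clear aldehydes and alcohols, 2 were higher and 0 lower. These were the carbonyl reductases Cbr1, by 0.49 ± 0.11 (adjusted p 0.0195), and Cbr3, by 1.23 ± 0.33 (adjusted p 0.0398). The call for Cbr3 was lost in 13 of the 18 fits that left out an array, with an adjusted p of up to 0.0891 without knockout canola replicate 1.

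The pathways in which the members work held 3 calls with genotype, in a comparison that called 4.57% of all tested genes. The calls are listed as a description, and no response of these pathways is read from so few. Around Aldh3a2, 1 of 7 fatty aldehyde and sphingosine genes was higher in knockout livers: Sgpl1, the sphingosine phosphate lyase whose product is a fatty aldehyde, by 0.35 ± 0.10. Its adjusted p of 0.0499 sat at the threshold and was lost in 15 of the 18 fits that left out an array, up to 0.103 without knockout canola replicate 1. Around Aldh4a1, 1 of 10 proline and hydroxyproline genes was higher, the ornithine aminotransferase Oat, by 0.42 ± 0.08 (adjusted p 0.00612). Oat also stands among the markers of pericentral hepatocytes, of which 3 of 9, Oat included, were higher in knockout livers. The summed linear level of the 9 also includes Oat, so these markers are not independent of it. That level was 39685 to 47626 in knockout arrays and 32341 to 39699 in control arrays, and the part of these markers in the result was not tested. Around Aldh7a1, 1 of 11 lysine genes was lower, the hydroxylysine kinase Hykk, at -0.33 ± 0.06 (adjusted p 0.00559), although the mean of all its probe sets gave -0.11 with an adjusted p of 0.511. Of 16 folate genes around Aldh1l1, 23 branched-chain amino acid genes around Aldh6a1, 11 kynurenine genes around Aldh8a1 and 8 carnitine genes around Aldh9a1, 0 passed. Of them 1, 0, 3 and 1 in that order stood at an unadjusted p under 0.05, beside 18% of all tested genes. Their median changes were -0.03, 0.01, -0.02 and 0.01 log2 units.

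Most calls on the lists fell among targets of nuclear receptors and of the oxidant-responsive factor NRF2. Of 17 targets of the receptors CAR and PXR, 13 were higher in knockout livers and 0 lower, with a median of 0.62, beside 0.03 for the 9 members. The 4 with the smallest p were Cyp2c55 (4.14 ± 0.20), Cyp2b10 (4.91 ± 0.28), the glutathione transferase Gstm3 (3.04 ± 0.20) and the carboxylesterase Ces2a (1.06 ± 0.09). Aldh1a1 is also on that list. Of 18 NRF2 targets 8 were higher and 0 lower, with a median of 0.41. They include Gstm3 again, Gstm1 (0.62 ± 0.07), Gstm2 (1.03 ± 0.13) and the epoxide hydrolase Ephx1 (0.43 ± 0.07). Gstm1, like Gstm3, is also on the list of CAR and PXR targets, so the counts for these lists overlap. Of 20 targets of PPARalpha, the fatty acid receptor, 1 was higher, the lipase inhibitor Angptl4 (0.52 ± 0.12, adjusted p 0.0208), with a median of 0.09. The call for Angptl4 was lost with the mean of all its probe sets, at 0.22 with an adjusted p of 0.117, and without knockout canola replicate 2, at an adjusted p of 0.0520.

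**Figure D4:**
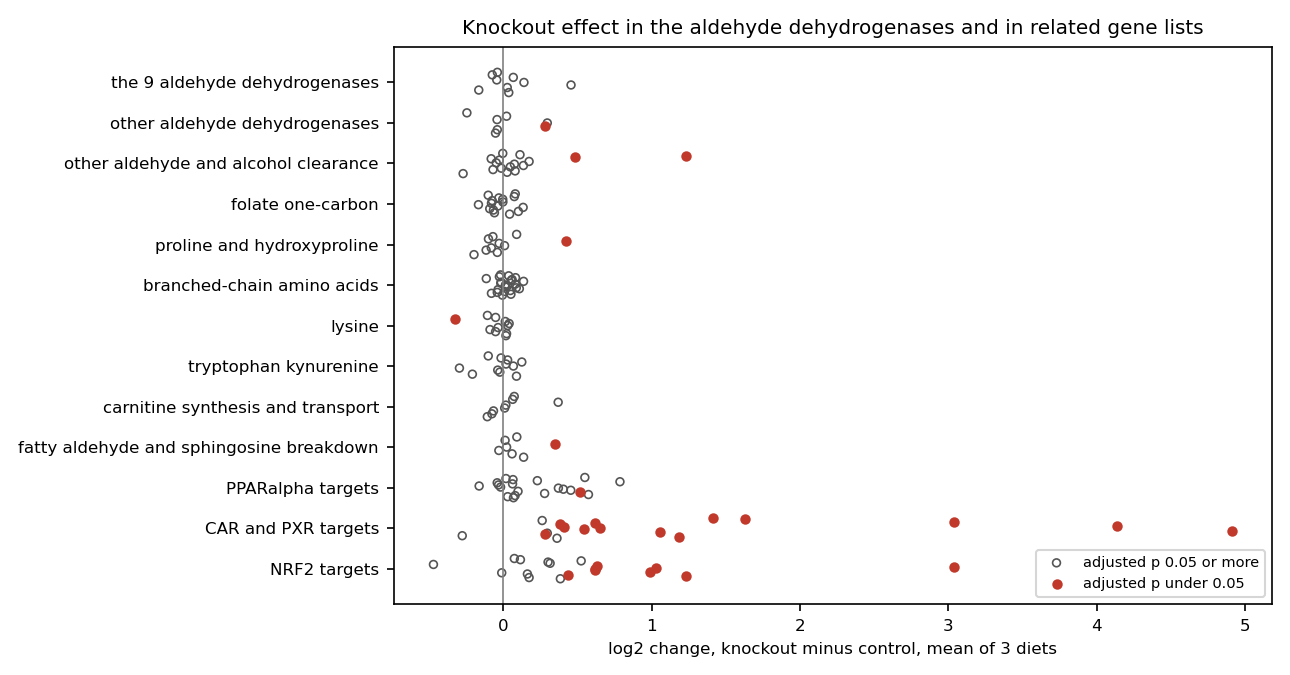
Log2 difference, knockout minus control averaged over diets (horizontal axis), of each tested gene (points) by list, filled where the gene passed the threshold and open where it did not. Small vertical shifts only separate points. The 9 members lie between -0.17 and 0.46 with none past the threshold, whereas 13 of 17 CAR and PXR targets and 8 of 18 NRF2 targets pass as higher. Gstm1 and Gstm3 stand in both of these lists.

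Between fish/fungal oil and lard 11 of the 157 tested genes on these lists were called, or 7.01%, beside 2.32% of all tested genes and 0 of the 9 members. Among the aldehyde and alcohol enzymes the aldehyde oxidase Aox3 was higher on fish/fungal oil (0.40 ± 0.09, adjusted p 0.0257) and Acss2, which makes acetyl-CoA from acetate, was lower (-1.22 ± 0.22, adjusted p 0.00471). The mean of all its probe sets gave -0.76 for Acss2 with an adjusted p of 0.0137. Mmab, an enzyme of cobalamin handling, was the 1 branched-chain amino acid gene of 23 that passed (-0.49 ± 0.11, adjusted p 0.0230), and the mean of its probe sets gave -0.28 with an adjusted p of 0.00726. Of the 11 lysine genes, the aminotransferase Aadat was higher (0.42 ± 0.09, adjusted p 0.0239) and Hykk lower (-0.31 ± 0.08, adjusted p 0.0409). The call for Hykk was lost with the mean of all its probe sets, at -0.30 with an adjusted p of 0.146. Of the other aldehyde dehydrogenases and the folate, proline, kynurenine, carnitine and fatty aldehyde genes, 0 passed. At an unadjusted p under 0.05 stood 1, 3, 2, 7, 2 and 2 of them in that order, beside 13.1% of all tested genes. The 7 were of 11 kynurenine genes, whose median was -0.18 log2 units, beside -0.07 ± 0.05 for Aldh8a1 of the same pathway. Of the PPARalpha targets, Cyp4a14 was higher (2.19 ± 0.56, adjusted p 0.0476) and the lipid droplet protein Plin2 lower (-0.51 ± 0.12, adjusted p 0.0329). Of the CAR and PXR targets Cyp2c37 was higher (0.54 ± 0.13, adjusted p 0.0329). Of the NRF2 targets Ephx1 was higher (0.50 ± 0.09, adjusted p 0.00325), while Gstm2 (-0.86 ± 0.16, adjusted p 0.00752) and Me1, the malic enzyme (-1.98 ± 0.38, adjusted p 0.00785), were lower. The calls for Aox3, Mmab, Aadat, Hykk, Plin2, Cyp4a14 and Cyp2c37 were each lost without at least 5 of the 18 single arrays. Among those fits their highest adjusted p-values were 0.0679 without knockout lard replicate 3 for Aox3, 0.0751 without knockout lard replicate 1 for Mmab and 0.0687 without control lard replicate 2 for Aadat. They were 0.109 for Hykk and 0.0899 for Plin2, both without knockout fish/fungal replicate 1, 0.148 for Cyp4a14 without control lard replicate 2 and 0.101 for Cyp2c37 without knockout lard replicate 1. A limma fit of only the groups compared also lost Mmab (adjusted p 0.0657), Hykk (0.0879), Plin2 (0.0810) and Cyp4a14 (0.103).

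Markers of other liver cells were also compared between genotypes. In this comparison 4.57% of tested genes passed and 18% stood at an unadjusted p under 0.05. Of 10 Kupffer cell and macrophage markers 4 were higher in knockout livers, with 8 at an unadjusted p under 0.05 and a median of 0.30. Their summed linear level was 9118 to 17173 in knockout arrays and 7404 to 12533 in control arrays. On lard 2 were called and 8 stood at an unadjusted p under 0.05, with a median of 0.54. Their level there was 13490 to 14528.5 in knockout and 8346 to 11637 in control arrays, without overlap. On canola oil 0 and on fish/fungal oil 1 stood at an unadjusted p under 0.05. Neither diet had a call, and the levels overlapped on both. All 10 lay above the array median. The part of hepatocyte, macrophage or pericentral markers in the values of the 9 members was not tested. Of 7 periportal, 9 stellate and 8 sinusoidal endothelial markers 0 passed, with 2, 5 and 2 at an unadjusted p under 0.05. The stellate markers had a median of 0.32. Of 3 bile duct and 3 neutrophil markers tested 0 passed, with 0 at an unadjusted p under 0.05, and 1 of 6 lymphocyte markers, the immunoglobulin gene Ighm, was lower.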

How the data were processed

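Expression was measured on Affymetrix Mouse Genome 430 2.0 arrays in 18 pools of liver RNA, 3 pools per genotype and diet. The deposited values are log2 expression values made by the authors with RMA. The submitters' processing notes name RMA without a version. That they are log2 was read from their range, 2.41 to 14.89. The number of arrays limits the precision. Of 45101 probe sets, 34945 had 1 gene symbol and 34741 matched the RefSeq table (GRCm38.p6). A gene was tested where its brightest probe set exceeded the array median on at least 3 arrays, which left 12578 of 18193 genes. One limma 3.58.1 fit in R 4.3.3, with 6 group means and an intensity trend, gave all 14 comparisons, with two-sided p-values adjusted by Benjamini-Hochberg and a threshold of 0.05. The fit was tested on simulated data.

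The members and lists were chosen with earlier results of these data known. Named genes are the 9 members, the 2 genes most like each by Pearson r, and from each list up to 4 genes that passed (smallest p first) in fish/fungal oil against lard and in the averaged knockout effect. Ighm was named after its values were seen. Of the listed genes, 26 had no named probe set, and 9 stood in 2 pathway lists. Array numbers repeat across groups. Their deviations from group means correlated with a median r of -0.01 over 45 same-number pairs and -0.04 over 90 others, so they were not taken as pairs. No array pair was identical. Alternatives were another scaling, filters, probe set rules, array weights, a replicate block, only the groups compared, and each array left out in turn. Each other probe set and the F test over 6 groups were added after seeing the data.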

Additional observations from a re-analysis of the deposited data

How the results depend on the processing

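The 9 members stayed without a call in fish/fungal oil against lard and in the averaged knockout effect under every alternative run, except for 1 member with array weights (Aldh3a2, 0.53) and in 2 fits that left out an array. With single arrays left out the number of members called ran from 0 to 1 in both, with Aldh3a2 and Aldh1b1 as given above. The Aldh3a2 knockout difference ran from 0.35 to 0.53. The number of genes called ran from 371 (without knockout canola replicate 2) to 698 in the averaged knockout effect (575 with all arrays) and from 199 to 369 in fish/fungal oil against lard (292).

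Signs near 0 turned. Without single arrays the knockout difference ran from -0.0506 to 0.0851 for Aldh1b1 and from -0.00949 to 0.0588 for Aldh2, and that of fish/fungal oil from lard ran from -0.0715 to 0.00650 for Aldh7a1. Centring turned the diet difference of Aldh7a1 to 0.00326. The mean of all probe sets turned the knockout difference to -0.0603 for Aldh7a1 and 0.0097 for Aldh9a1, and the diet difference to 0.0266 for Aldh2, 5.8e-05 for Aldh7a1 and -0.0050 for Aldh9a1. Other probe sets turned the knockout difference to -0.0948 and -0.0502 for Aldh2, -0.13 and -0.12 for Aldh7a1 and 0.0598 for Aldh9a1. They turned the diet difference to 0.20, 0.12 and 0.0173 for Aldh2, 0.0556 for Aldh7a1 and -0.0561 for Aldh9a1. The cause was not tested.

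Counts of genes called in smaller comparisons depended on the setting. Array weights gave 90 in the knockout effect on canola oil (8 in the fit reported), 30 in fish/fungal oil against lard in knockout livers (58), 50 in fish/fungal against canola oil in control livers (33) and 1 in canola oil against lard (0). Centring also gave 50 there, a filter at the 75th percentile gave 70 in the knockout effect on lard (124), and the mean of probe sets gave 24 in that on fish/fungal oil (37). Fitting only the groups compared gave 1 on canola oil, 22 on fish/fungal oil, 12 for fish/fungal oil against lard and 10 against canola oil in knockout livers, and 2 for canola oil against lard in control livers. The replicate block gave 13 in fish/fungal against canola oil in knockout livers (20) and changed no call of a member. It raised the adjusted p of Hykk between diets to 0.0591 and of Sgpl1 between genotypes to 0.0684. Leaving out arrays gave 30 (without control lard replicate 3) to 161 genes in the knockout effect on lard, 3 to 28 (without knockout canola replicate 3) on canola oil and 13 (without knockout fish/fungal replicate 2) to 43 on fish/fungal oil. In fish/fungal oil against lard they gave 12 to 116 in knockout and 41 to 93 in control livers, in fish/fungal against canola oil 5 to 30 in knockout, 19 to 48 in control and 76 to 155 averaged, and in canola oil against lard 0 to 4 averaged.

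With 3 pools per group, a member as variable as Aldh3a2 has a standard error of 0.15 for the averaged knockout effect and of 0.26 within a diet, so modest differences there were not detectable. Dim second probe sets limit what can be said of Aldh7a1.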
